A study of Mus musculus with 6 samples.

Results

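This account follows genes of the NF-kB pathway in cultured mouse sympathetic neurons given interferon-gamma. The genes are a fixed list of 9 subunits, inhibitors and targets, found on the array by their platform gene symbol: the subunits Nfkb1, Nfkb2, Rel, Rela and Relb, the inhibitors Nfkbia, Nfkbie and Tnfaip3, and the target gene Tnfaip2. Of the 9 genes, 8 were measured, by 18 features, among 19087 genes on the array, and Nfkb1 was not analysed here. Neurons received IFN-γ at 500 U/ml for 24 h and were measured on 3 arrays, numbered 1 to 3 as in the labels, and control neurons, cultured for the same 24 h, on another 3. Each array is a 2-colour Agilent array with neuron RNA in Cy5 and one kind of reference in Cy3, RNA of untreated sympathetic cervical ganglia (SCG) of postnatal day 5 (P5). The strain, the age of the neurons and the purity of the cultures are not given in the sources used here.

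NF-kB is a family of dimeric transcription factors. Rela, Rel and Relb encode subunits with their own activation domain, whereas Nfkb2, like Nfkb1, encodes a precursor that is processed to a DNA-binding subunit. In resting cells IkB proteins hold the dimers in the cytoplasm. A signal from receptors for tumour necrosis factor, interleukin-1 or microbial products activates the IkB kinase (IKK), the IkB protein is degraded, and the dimer enters the nucleus. Among the genes it then switches on are Nfkbia and Nfkbie, which encode IkB alpha and IkB epsilon, and Tnfaip3, which encodes the ubiquitin-editing enzyme A20, so the pathway makes its own inhibitors. Much of the control acts on proteins, which RNA levels do not measure. Interferon-gamma itself signals through Janus kinases, a separate pathway, and many inflammatory genes respond to both. In neurons that depend on nerve growth factor, NF-kB has been studied as a survival factor.

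Every value below is a log2 ratio of neuron RNA over ganglion RNA, averaged over the features of a gene, and a difference is the mean of the 3 IFN-γ arrays minus the mean of the 3 control arrays. The log2 scale and the direction are inferred and not stated by the sources. All 8 genes listed as textbook targets of interferon-gamma, Irf1 and Tap1 among them, rose in IFN-γ neurons with this direction, which is why it was taken, so their rise is no separate evidence. IFN-γ array 2 stood apart from the other IFN-γ arrays in the spread of its ratios and in markers of non-neuronal cells. The mean ratio of 8 fibroblast markers was 0.28, -1.82 and -0.22 on IFN-γ arrays 1 to 3, against -0.15, -1.43 and -0.33 on control arrays 1 to 3. That of 8 glial markers was -0.28, -1.26 and -0.32, against -0.54, -1.005 and -0.56, so array 2 was the lowest of both groups in both lists. The 295 genes with a control mean below -1.5 shifted by a median of 1.30 on IFN-γ array 1, -0.19 on array 2 and 1.21 on array 3, against the control mean. The 99 genes with a control mean above 1.5 shifted by a median of -1.13, 0.05 and -0.83 on these arrays. Genes at both ends thus moved towards 0 on arrays 1 and 3. Both sets were picked by their control values after the data were seen, which by itself can move their ratios towards 0. Relb, Rel, Nfkbia and Tnfaip3 are among the 295 genes. Across all genes, which are not independent of each other, Pearson's r was 0.61 to 0.78 among IFN-γ arrays and 0.61 to 0.71 among control arrays. The mean ratio of the 10 measured sympathetic neuron markers was -0.34 to -0.09 on the IFN-γ arrays, against 0.08, 0.14 and -0.40 on control arrays 1 to 3. Control means of single markers ran from -0.58 for Slc18a2 to 0.52 for Gata3, named after their values were seen.

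None of the 8 NF-kB genes passed the threshold for a difference between IFN-γ and control neurons (limma, adjusted p under 0.05 over all 19087 genes), a threshold that 1.14% of all genes passed. At an unadjusted p under 0.05 the count was 1, Tnfaip2, and 7.95% of all genes reached that level. The subunits Rela, Rel, Relb and Nfkb2 and the inhibitors Nfkbia and Nfkbie had differences between -0.20 and 0.26, Tnfaip3 had 0.68 and Tnfaip2 had 1.21. With quantile normalization Rel was at -0.47, Relb at -0.31 and Tnfaip3 at 0.37, and none of the 3 passed there (limma, adjusted p = 0.548, 0.747 and 0.574). The median over the 8 genes was 0.11, beside 0.01 over all genes, and it was -0.0014 with quantile normalization. Differences were positive for 5 of the 8 genes and negative for 3.

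**Figure D1:**
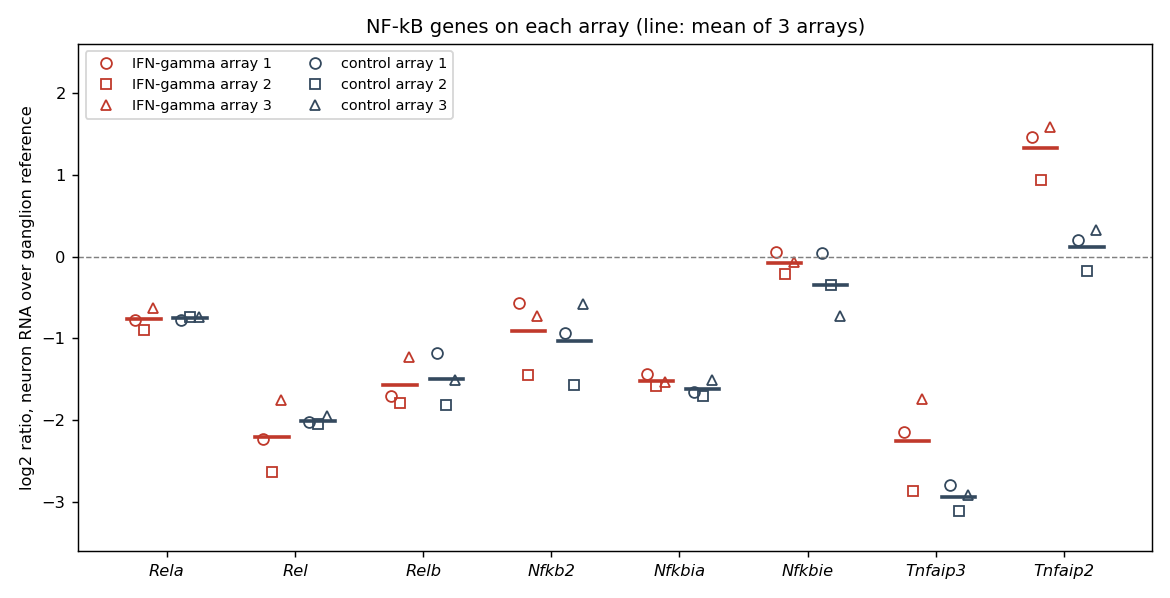
Log2 ratio of neuron RNA over ganglion reference (vertical axis) for each of the 8 measured NF-kB genes on the 3 IFN-γ arrays (red, left of each pair) and the 3 control arrays (blue-grey, right), with symbols for arrays 1 to 3 and a line at the mean. The groups do not overlap for Tnfaip2 and overlap for the other 7 genes, and IFN-γ array 2 is the lowest IFN-γ array for all 8.

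Rela encodes p65, the activating subunit of the most common NF-kB dimer. Its mean ratios were -0.77, -0.90 and -0.63 on IFN-γ arrays 1, 2 and 3, against -0.78, -0.74 and -0.74 on control arrays 1, 2 and 3. The control arrays lay within the range of the IFN-γ arrays, which spread more (SD 0.14 in IFN-γ neurons and 0.02 in control neurons, n = 3 each). The difference was -0.01 ± 0.12 (SE), with a 95% interval from 0.813-fold to 1.21-fold (limma, adjusted p = 0.986).

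Rela was also the NF-kB gene with the most features, 11 in all, which show how far readings of 1 gene scatter on 1 array. All 11 are annotated to the same transcript, and whether they repeat 1 probe was not examined here. The SD over these features was between 0.11 and 0.18 on the 6 arrays. Of the 11 features, 3 had a positive and 8 a negative difference, from -0.13 to 0.26, and none passed the threshold when tested alone (lowest adjusted p = 0.807). The other 7 NF-kB genes had 1 feature each, so no second feature stands behind their values.

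**Figure D2:**
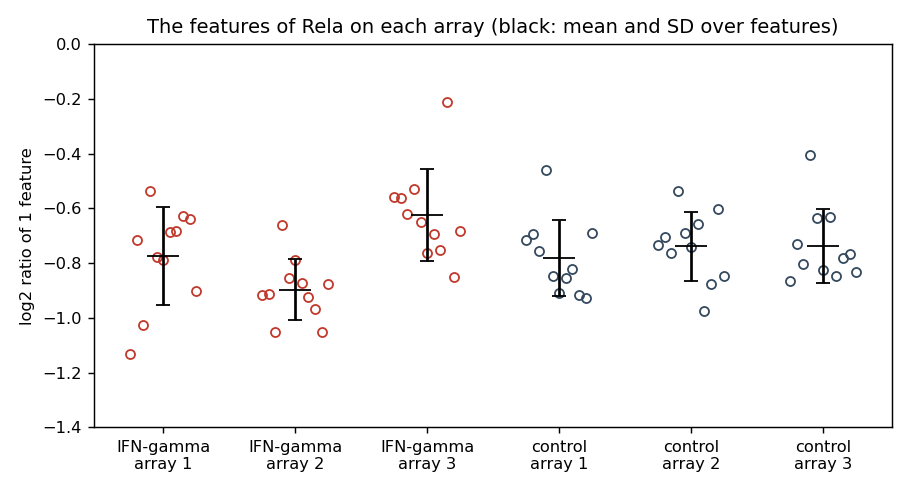
Log2 ratio of each of the 11 features of Rela (open circles) on the 3 IFN-γ arrays (red) and the 3 control arrays (blue-grey), with the mean and SD over features in black. The features of all 6 arrays cover overlapping ranges, and the means lie between -0.90 and -0.63.

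Rel encodes c-Rel, the subunit best known from lymphocytes. The ratios of Rel were -2.24, -2.63 and -1.75 on IFN-γ arrays 1 to 3, against -2.02, -2.05 and -1.95 on control arrays 1 to 3. The control values sat together, and the IFN-γ values lay on both sides of them. The difference was -0.20 ± 0.23 (SE), or 0.871-fold with a 95% interval from 0.598-fold to 1.27-fold (limma, adjusted p = 0.858).

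Relb encodes the partner of the processed Nfkb2 product in the slower, non-canonical branch of the pathway. Ratios of Relb were -1.70, -1.79 and -1.23 on IFN-γ arrays 1 to 3, against -1.18, -1.81 and -1.51 on control arrays 1 to 3. The groups covered nearly the same range, and the difference was -0.07 ± 0.22 (SE; 95% interval 0.658-fold to 1.38-fold; limma, adjusted p = 0.953). Ratios of Nfkb2 itself were -0.57, -1.44 and -0.73 in IFN-γ neurons, against -0.93, -1.57 and -0.58 in control neurons. Array 2 was the lowest of both groups, and the difference, 0.11 ± 0.33 (SE), was smaller than the SD within either group (0.47 in IFN-γ and 0.50 in control neurons, n = 3 each). Its 95% interval, from 0.628-fold to 1.87-fold, was the widest among the 4 subunits on the log2 scale (limma, adjusted p = 0.948).

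Of the inhibitors, Nfkbia, whose product masks the nuclear localisation signal of the dimers and whose RNA is a common readout of pathway activity, was measured with the least spread. Its ratios were -1.44, -1.59 and -1.54 on IFN-γ arrays 1 to 3, against -1.66, -1.70 and -1.51 on control arrays 1 to 3. The groups overlapped, since control array 3 lay above IFN-γ arrays 2 and 3. The difference was 0.10 ± 0.12 (SE), or 1.07-fold with a 95% interval from 0.885-fold to 1.30-fold (limma, adjusted p = 0.859), and with quantile normalization it was -0.18. Nfkbie had ratios of 0.05, -0.22 and -0.07 in IFN-γ neurons, against 0.05, -0.34 and -0.73 in control neurons. Its IFN-γ values lay closer together than its control values, which fell in even steps from array 1 to array 3. Nfkbie had a difference of 0.26 ± 0.21 (SE; 95% interval 0.843-fold to 1.71-fold; limma, adjusted p = 0.804).

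Tnfaip3 encodes A20, which removes and edits ubiquitin chains on signalling proteins upstream of IKK. Its ratios were -2.15, -2.87 and -1.74 on IFN-γ arrays 1 to 3, against -2.79, -3.11 and -2.91 on control arrays 1 to 3. IFN-γ arrays 1 and 3 lay above every control array, and array 2 fell among them. The difference was 0.68 ± 0.29 (SE), or 1.60-fold with a 95% interval from 0.993-fold to 2.59-fold, and it did not pass (limma, unadjusted p = 0.0527, adjusted p = 0.628). Among the 295 genes with a control mean below -1.5, the median difference was 0.78, and 57.0% had a difference at least as high as that of Tnfaip3. For Nfkbia, Relb and Rel, the shares of those 295 genes with a difference at least as high were 88.5%, 93.2% and 94.9%. Whether the spread of ratios on the arrays has a part in the value of Tnfaip3 was not tested.

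**Figure D3:**
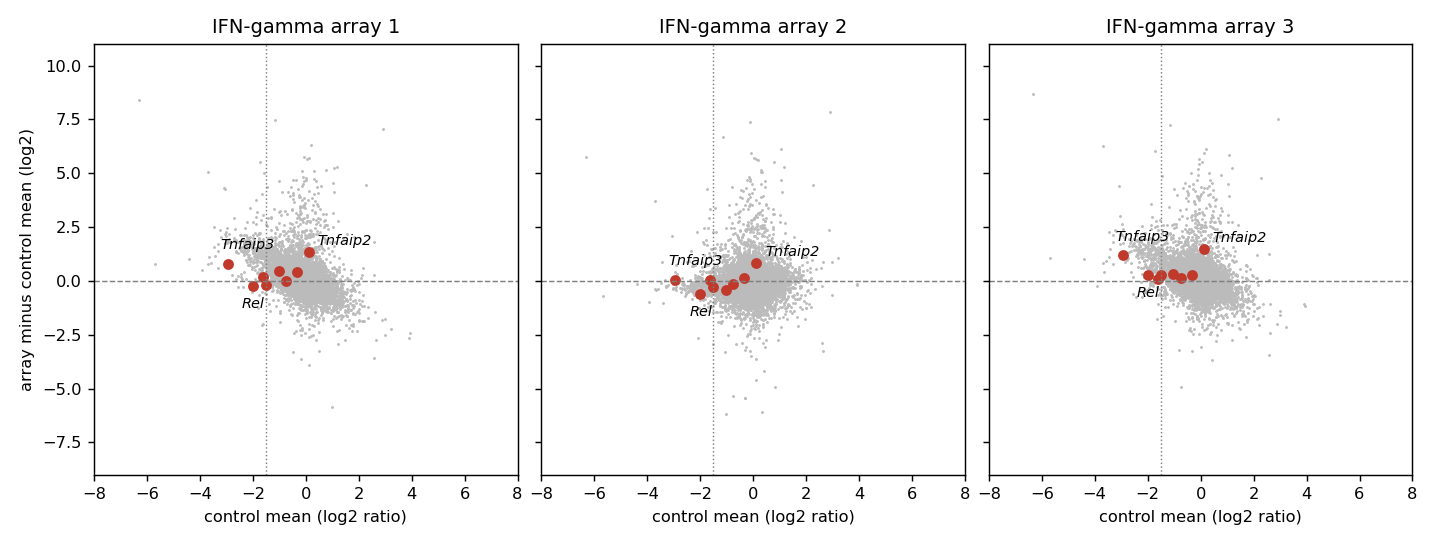
For each IFN-γ array (panels 1 to 3), the ratio on that array minus the control mean (vertical axis, log2) against the control mean (horizontal axis, log2 ratio) of all 19087 genes (grey) and the 8 NF-kB genes (red), with a dotted line at a control mean of -1.5. Left of this line most genes lie above 0 on arrays 1 and 3 and around or below 0 on array 2, and Rel lies below most of them on each array.

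Tnfaip2, a gene found through its induction by tumour necrosis factor, encodes a protein known for membrane protrusions and tunnelling nanotubes. Its ratios were 1.46, 0.93 and 1.59 on IFN-γ arrays 1 to 3, against 0.20, -0.18 and 0.32 on control arrays 1 to 3. Every IFN-γ array lay above every control array, a separation upwards that 8.08% of all genes showed. The difference was 1.21 ± 0.22 (SE), or 2.32-fold with a 95% interval from 1.60-fold to 3.35-fold, and it missed the threshold over all genes (limma, unadjusted p = 0.00119, adjusted p = 0.0880), at rank 258 of 19087 by p. It passed without IFN-γ array 2, at 1.41 (limma, adjusted p = 0.0194), and with array weights, at 1.39 (limma, adjusted p = 0.0231). With the replicate number as a block, a pairing that the labels do not give, it also passed, at 1.21 (limma, adjusted p = 0.0364). Among all genes 508 passed without IFN-γ array 2, 288 with array weights and 166 with the block, beside 217 in the main fit. Tnfaip2 did not pass without any other single array. With quantile normalization the adjusted p was 0.137.

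**Figure D4:**
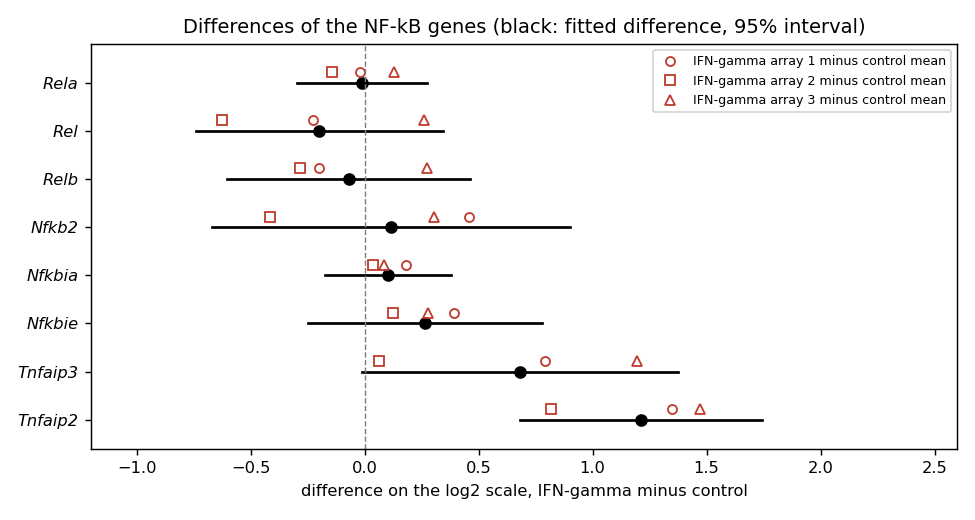
Fitted difference between IFN-γ and control neurons (black dot) with its 95% interval (black line) on the log2 scale for the 8 NF-kB genes, and above each line the values of IFN-γ arrays 1 to 3 minus the control mean (red symbols). The intervals of 7 genes include 0, that of Tnfaip3 narrowly so, and that of Tnfaip2 runs from 0.68 to 1.74.

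Markers of other cells were set beside the values of Tnfaip2 and Tnfaip3, since a ganglion culture can hold non-neuronal cells, and in bulk RNA a changed number of cells and a changed amount of RNA per cell cannot be told apart. Of 10 measured macrophage markers, 2 rose, Fcgr1 by 3.07 ± 0.22 and C1qa by 1.64 ± 0.23 (SE; limma, adjusted p = 0.00151 and 0.0288), beside the 1.12% of all genes that rose, and the lowest difference was -0.87 for Cd163. At an unadjusted p under 0.05, 4 macrophage markers were higher, beside 5.27% of all genes, and the same 4 had IFN-γ arrays all above the control arrays, beside 8.08%. The other two, Aif1 at 0.71 and C1qb at 0.64, are named after their values were seen. Fcgr1 is itself a known target of interferon-gamma. The mean ratio over the macrophage list was -0.10 to 0.35 on the IFN-γ arrays, against -0.55 to -0.27 on the control arrays. This mean includes Fcgr1 and C1qa. The list median was -0.25 to 0.56 on the IFN-γ arrays, against -0.45 to -0.29 on the control arrays. Differences were positive for 7 macrophage markers and negative for 3. Beside Cd163 these were Mrc1 at -0.46 and Itgam at -0.42, also named after their values were seen. No gene passed among 8 glial markers (from -1.07 for S100b to 0.89 for Kcnj10), 8 fibroblast markers (from -0.81 for Col1a1 to 0.98 for Lum) and 8 endothelial markers (from -1.11 for Emcn to 0.25 for Tek). The mean of the endothelial list ran from -1.17 to -0.67 on the IFN-γ arrays, against -0.86 to -0.30 on the control arrays. IFN-γ array 2 was the lowest IFN-γ array for the means of all 4 lists, macrophages, glia, fibroblasts and endothelium. It was also the lowest for all 8 NF-kB genes, beside 41.5% of all genes. The mean of the sympathetic neuron list was instead highest on array 2 of each group, at -0.09 in IFN-γ and 0.14 in control neurons. At an unadjusted p under 0.05, 1 glial marker was lower in IFN-γ neurons, beside 2.68% of all genes, and none of the fibroblast or endothelial markers differed. Of 10 sympathetic neuron markers none passed, from -0.97 for Npy to 0.27 for Prph, with 1 lower at an unadjusted p under 0.05, beside the same 2.68%. Ratios do not show whether a marker is absent from a culture. The part of these cells in the values of Tnfaip2 and Tnfaip3 was not tested.

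Over the 6 arrays, the genes whose values around their control mean lay nearest to those of Tnfaip2 were Trim69, Chit1, Tmco4, Slc44a3 and Lair1, by the root mean square distance of the 6 values. The distance was 0.131 for Trim69, 0.135 for Chit1 and 0.153 for Lair1. Among these 5 genes the difference ran from 1.03 for Tmco4 to 1.37 for Chit1. They were picked by their values on all 6 arrays, so a difference near that of Tnfaip2 follows from the choice and is no separate evidence. Chit1, which encodes a chitinase, rose (SE 0.18; limma, adjusted p = 0.0204), as did Lair1, an inhibitory receptor of leukocytes, at 1.13 ± 0.16 (SE; limma, adjusted p = 0.0343). Trim69, Tmco4 and Slc44a3 did not pass, so genes of nearly the same shape lay on both sides of the threshold.

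IFN-γ array 2 was the lowest of the IFN-γ arrays for 8 of 8 NF-kB genes. This array was the lowest for 41.5% of all genes and for 90.8% of the 295 genes with a control mean below -1.5. Among the control arrays, array 2 was the lowest for 6 of the 8 genes, beside 31.4% of all genes and 60.0% of those 295 genes.

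In control neurons most of the NF-kB genes had less RNA, relative to the ganglion, than most other genes on the array. The control means were negative for 7 of the 8 genes, as for 53.5% of all genes. Tnfaip3 had -2.94 ± 0.16 (SD, n = 3), or 0.131 times the ganglion level, and lay at percentile 0.136 of all genes. Rel followed at -2.01 ± 0.05 (0.249 times, percentile 0.671), Nfkbia at -1.62 ± 0.10 (0.325 times, percentile 1.27) and Relb at -1.501 ± 0.31 (0.353 times, percentile 1.55). Nfkbia and Relb differed by less than the SD of Relb. Nfkb2 stood at -1.03 ± 0.50, Rela at -0.75 ± 0.02 and Nfkbie at -0.34 ± 0.39, and Rela lay within the SD of Nfkb2 and just outside that of Nfkbie. Tnfaip2 was at 0.11 ± 0.26 in control neurons, which does not stand apart from the ganglion level, and at 1.33 ± 0.35 in IFN-γ neurons (SD, n = 3 each), or 2.51 times the ganglion level. Tnfaip3 was at -2.25 ± 0.57 in IFN-γ neurons, 0.210 times the ganglion level. Ratios compare each gene with its own level in the ganglion and do not rank the genes by abundance. The ganglion was measured in a single dye, so a dye effect can be part of each ratio, and no test was made.

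Stretches before transcript starts are shown because NF-kB genes are known to be controlled by NF-kB itself. RefSeq (GRCm38.p6) gave windows of 250 bases before a transcript start for 7 of the 8 genes, with several starts for Nfkb2 and Tnfaip3. A start is that of a single transcript and need not be the first of the gene: 211 bases of the Tnfaip2 window, its marked match included, all 250 of each Nfkb2 window and of the second Tnfaip3 window, and 99 of the Rela window lie inside the annotated gene. They were searched on both strands for the kB decamer consensus, for the gamma-activated site (GAS) TTCNNNGAA, and for the interferon-stimulated response element core GAAANNGAAA. Capitals mark matches to the kB consensus, the only one of the 3 motifs found in these windows of Tnfaip2, Tnfaip3 and Nfkbia, all written 5′ to 3′ on the strand of the gene. For Tnfaip2 the 30 bases around its match are shown, chr12:111442627-111442656 on the plus strand, and for the others the whole window. The window of Tnfaip3 is chr10:19015411-19015660 and that of Nfkbia is chr12:55492648-55492897, both on the minus strand.
Tnfaip2: gactattttaGGAGGGCCCCtccagggtcg
Tnfaip3: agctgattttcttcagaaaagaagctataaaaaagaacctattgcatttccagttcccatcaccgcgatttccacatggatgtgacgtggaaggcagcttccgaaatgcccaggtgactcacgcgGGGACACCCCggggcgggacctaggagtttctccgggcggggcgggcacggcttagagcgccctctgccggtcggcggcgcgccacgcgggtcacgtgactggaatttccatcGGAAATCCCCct
Nfkbia: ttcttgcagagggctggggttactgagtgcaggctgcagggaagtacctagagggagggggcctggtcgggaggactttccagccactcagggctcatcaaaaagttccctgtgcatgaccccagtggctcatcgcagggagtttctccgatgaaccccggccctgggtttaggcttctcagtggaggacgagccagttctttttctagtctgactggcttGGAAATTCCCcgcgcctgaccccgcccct

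The match of Tnfaip2, GGAGGGCCCC, lay 24 to 15 bases before the start. Nfkbia held GGAAATTCCC at 29 to 20 bases and Tnfaip3 held GGAAATCCCC at 12 to 3 bases and GGGACACCCC at 125 to 116 bases before the start. Rel carried the overlapping pair GGGAAATCCC and GGAAATCCCC, the second of which has the same letters as a match of Tnfaip3. Nfkb2 carried matches before each of its 3 starts, among them GGGACTTTCC, and Nfkbie carried GGGGGATTCC. The window of Rela and the second window of Tnfaip3 held none. Of 32851 windows over all genes, 7.25% held a kB match, 7.02% a GAS match and 2.98% the response element core. GAS was found before 1 start of Nfkb2, at TTCCCCGAA, and the response element core before none of the 7 genes. A match of letters does not show that a factor binds there.

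The rest of the pathway was followed with 5 lists of 70 entries, of which 65 genes were measured. Among them 2 rose and none fell, both in the list of ligands and receptors, beside the 1.12% of all genes that rose and the 0.021% that fell, and the median over the 65 genes was 0.14. At an unadjusted p under 0.05, 11 were higher and 2 lower in IFN-γ neurons, beside 5.27% and 2.68% of all genes. Tnfrsf11a, which encodes the receptor RANK, had ratios of 1.02, 0.71 and 0.88 in IFN-γ neurons, against -0.07, 0.01 and 0.08 in control neurons, a difference of 0.87 ± 0.13 (SE; limma, adjusted p = 0.0366). Tnfsf13b, which encodes the B cell survival factor BAFF, had ratios of 0.90, 0.90 and 1.04, against 0.07, 0.02 and 0.31, a difference of 0.81 ± 0.13 (SE; limma, adjusted p = 0.0483). Both were higher on 3 of 3 IFN-γ arrays than on any control array. Neither held in every setting. Without IFN-γ array 1, without IFN-γ array 3 or without any single control array neither passed, and without IFN-γ array 2 Tnfsf13b did not pass. With quantile normalization both missed the threshold (limma, adjusted p = 0.0678 for Tnfrsf11a and 0.0630 for Tnfsf13b). They also missed it with arrays scaled to a common spread (0.0799 and 0.0585) and with the replicate number as a block (0.148 and 0.118).

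Of the 15 ligands and receptors, 5 were higher and 1 lower at an unadjusted p under 0.05 (limma), beside 5.27% and 2.68% of all genes. The lower gene was Ngfr, at -0.44 ± 0.18 (SE; limma, adjusted p = 0.619), named after its value was seen. Of those that did not pass, Tnf, the cytokine that starts the canonical pathway, was at 0.97 ± 0.21, and Tnfrsf1a, its main receptor, at 0.78 ± 0.26 (SE; limma, adjusted p = 0.165 and 0.484). Neither passed with all 6 arrays, and Tnf passed without IFN-γ array 2, where 508 of all genes passed, beside 217 in the main fit. No gene passed among the 7 measured of 10 listed IKK subunits and upstream kinases, with a list median of 0.11. The largest differences there were those of the IKK-related kinases Tbk1 (0.29 ± 0.14) and Ikbke (0.24 ± 0.24). The count at an unadjusted p under 0.05 was also 0 there (limma). IFN-γ arrays lay all above the control arrays for 1 of the 7, Ikbkg at 0.16 ± 0.11, beside 8.08% of all genes. Ikbkg is named after its value was seen. None passed among the 5 other IkB proteins, with a median of 0.21 and no gene at an unadjusted p under 0.05 (limma). Bcl3, an atypical nuclear IkB, was at 0.56 ± 0.39 and Nfkbiz, another, at 0.44 ± 0.22.

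Of 19 adaptors and ubiquitin regulators, none passed (limma), 2 were higher at an unadjusted p under 0.05, beside 5.27% of all genes, and 5 had IFN-γ arrays all above the control arrays, beside 8.08% of all genes. Rnf31, the catalytic subunit of the complex that builds linear ubiquitin chains, had ratios of 0.72, 0.65 and 0.78 in IFN-γ neurons, against 0.22, 0.16 and -0.16 in control neurons, a difference of 0.64 ± 0.14 (SE; limma, adjusted p = 0.177). Tank, an adaptor of the IKK-related kinases, was at 0.38 ± 0.14 (limma, adjusted p = 0.524). The other subunits of the linear chain complex, Rbck1 and Sharpin, named after their values were seen, were at 0.23 ± 0.11 and 0.23 ± 0.12, and their arrays did not overlap between the groups either. The remaining gene of the 5 without overlap was Cyld, at 0.28 ± 0.12, also named after its value was seen.

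Of 19 further NF-kB target genes, none passed (limma), 4 were higher and 1 lower at an unadjusted p under 0.05, beside 5.27% and 2.68% of all genes, and the list median was 0.09. The lower gene was Ptgs2, at -1.78 ± 0.41 (SE; limma, adjusted p = 0.211), named after its value was seen. The highest were Icam1, an adhesion molecule, at 3.61 ± 0.61, and Ccl5, a chemokine, at 3.54 ± 0.60 (SE; limma, adjusted p = 0.0663 for each). Icam1 had ratios of 1.24, -0.97 and 1.34 on IFN-γ arrays 1 to 3, against -2.89, -3.39 and -2.93 on control arrays 1 to 3. Its control mean of -3.07 places it among the 295 genes below -1.5. Ratios of Ccl5 were 3.33, 1.53 and 3.92 on IFN-γ arrays 1 to 3, against -0.95, -0.66 and -0.21 on control arrays 1 to 3. Icam1 and Ccl5 are also known to respond to interferon-gamma. Both passed with array weights and without IFN-γ array 2, where 288 and 508 of all genes passed, beside 217 in the main fit. In control neurons 16 of these 19 targets had a mean ratio below 0, with a median of -1.07, beside -1.26 for the 8 NF-kB genes and -0.03 over all genes.

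**Figure D5:**
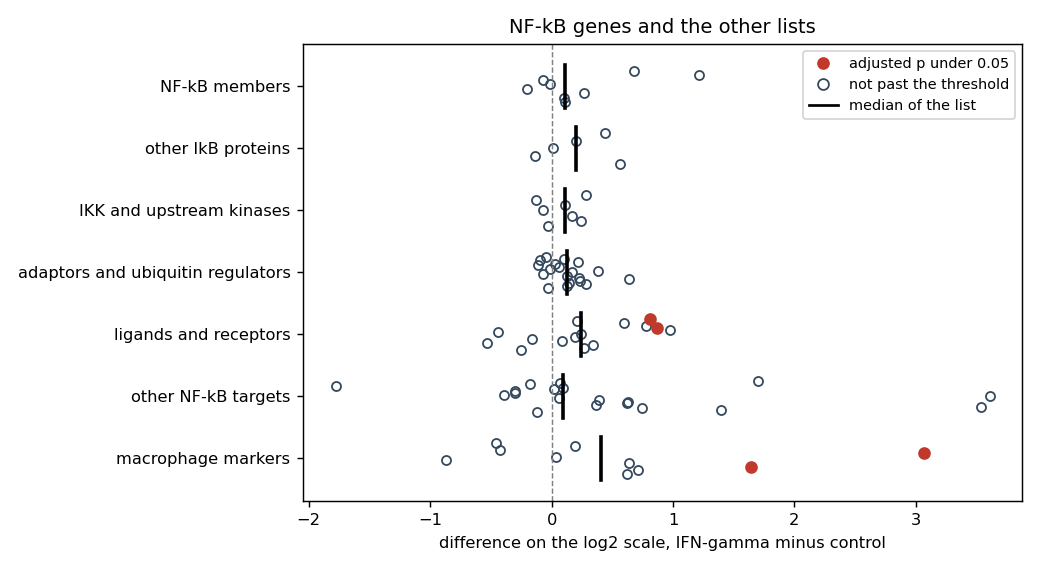
Difference between IFN-γ and control neurons on the log2 scale (horizontal axis) for each measured gene of the 8 NF-kB genes, the 5 pathway lists and the macrophage markers, with filled red dots for genes past the threshold (limma, adjusted p under 0.05), open dots for the rest and a black line at the list median. The medians of the NF-kB and pathway lists lie between 0.09 and 0.24, and the filled dots are Tnfrsf11a, Tnfsf13b, Fcgr1 and C1qa.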

How the data were processed

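The authors deposited 1 log2 ratio per array feature, centred within each array (array medians 0 to 0.005). Images were read with Agilent Feature Extraction, per the submitters' processing notes; its version, the background correction and the normalization are not given in the sources used here. The log2 scale was inferred from the range of the values, -9.00 to 10.73, and the direction from the labelled dyes and from known targets of interferon-gamma. Of 45220 features, 33653 had 1 gene in the platform annotation, and 33517 of these were matched by gene number to RefSeq. Features were averaged per gene, with no filter. Signal and background were not analysed here, so dim genes could not be told apart.

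The difference between IFN-γ and control arrays was fitted with limma (version 3.58.1, R 4.3.3, lmFit and eBayes, two-sided), with Benjamini-Hochberg adjustment over 19087 genes, threshold 0.05 and 95% intervals. The code was tested on simulated data. Members and lists were chosen with earlier results of these data known. All members are named; from each pathway list, genes past the threshold and the 2 largest other differences; from each marker list, the highest and lowest. Exceptions are marked. Nothing in the labels says that replicates came from separate cultures, so the p-values rest on a spread between arrays that may be technical. The number of arrays, 3 per group, limits the precision. Alternatives were quantile and spread scaling, the median over features, zeros as missing, a variance trend, array weights, a replicate block, single features and leaving out each array.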

Additional observations from a re-analysis of the deposited data

How the results depend on the processing

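The count of NF-kB genes past the threshold was 0, and it was 1, Tnfaip2, with array weights and without IFN-γ array 2. Among all genes 288 passed with array weights and 508 without IFN-γ array 2, beside 217 in the main fit. Leaving out single arrays gave 0 to 1 for the NF-kB count, 113 to 508 for all genes and 0 to 5 for the 65 pathway genes. The median difference of the NF-kB genes ran from 0.03 to 0.23 over the left-out arrays and was -0.0014 with quantile normalization. Without IFN-γ array 2 the 5 pathway genes were Ccl5, Icam1, Tnf, Tnfrsf11a and Vcam1, and without any other single array there were 0. The pathway count was 2, and it was 0 with quantile normalization, 0 with arrays scaled to a common spread, and 4 with array weights. The alternatives for the pathway lists and for control levels were added after the data were seen. Over all genes 217 passed. The labels do not say that same-numbered arrays form pairs, so the main fit did not pair them. Same-numbered arrays had correlations of deviations of 0.06, 0.31 and -0.03 for numbers 1 to 3. Arrays with different numbers had -0.27 to 0.18. The value of 0.31 was the highest of all, so these correlations do not settle whether the arrays are paired. With the replicate number as a block, 1 NF-kB gene, Tnfaip2 (adjusted p = 0.0364), 1 pathway gene, Icam1, and 166 genes in all passed, while Tnfrsf11a (adjusted p = 0.148) and Tnfsf13b (adjusted p = 0.118) did not.

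Tnfaip2, Tnfaip3 and Nfkbie kept a positive difference in every alternative run, with 1.07 to 1.41, 0.43 to 0.99 and 0.07 to 0.46 over the left-out arrays and 1.22, 0.37 and 0.26 with quantile normalization. No NF-kB gene other than Tnfaip2 passed in any alternative, single features included, and differences near 0 changed sign. Nfkbia was at -0.18 with quantile normalization. Rela was at 0.019 with the median over features and 0.043 with array weights, and Relb at 0.11 with array weights. Over left-out arrays Nfkb2 ran from -0.16 to 0.38, Rel from -0.43 to 0.015, Rela from -0.083 to 0.053 and Relb from -0.24 to 0.088. The causes were not tested. A filter on dim features and another background correction could not be run on ratios alone.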
